A study of Mus musculus with 8 samples.

Results

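The regions described here carried hotspots of Brg1 and of CHD4 and none of Snf2h. They were selected on the deposited hotspot lists: hotspots of 6 libraries that overlapped by at least 1 bp were joined, and a member holds a hotspot of both Brg1 libraries and both CHD4 libraries and no hotspot of either Snf2h library. The rule found 3252 members among 532751 joined regions, which is 0.610% of all of them. A hotspot is an interval in which a library's sequence tags were enriched, as the authors called it.

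The chromatin immunoprecipitation libraries came from untreated cells of 3134, a mouse mammary epithelial line, and there were 2 replicates for each of 3 antibodies. All 6 libraries share this line and the absence of treatment, so the comparisons are between regions and between antibodies, not between conditions. The labels do not tell whether replicates are separate cultures, and their spread may be technical. The study asked, by its title and design text, where 3 remodelers sit in the genome and how far they share sites.

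Brg1, CHD4 and Snf2h are ATPases that use the energy of ATP to move, eject or restructure nucleosomes. Brg1 is a catalytic subunit of SWI/SNF complexes, which are known for opening chromatin at enhancers and promoters. CHD4 is the remodeling ATPase of NuRD, a complex that also carries histone deacetylases and is best known in repression, though it is found at active genes as well. Snf2h is an ATPase of ISWI complexes, known for spacing nucleosomes and for access of factors such as CTCF to their sites.

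Of 23399 regions with all 4 Brg1 and CHD4 lists, 13.9% were members (95% Wilson interval 13.5% to 14.3%, which covers counting error only). A further 9705 regions (41.5%) held 1 Snf2h list and 10442 (44.6%) held both. These shares describe the lists and carry no test, because the lists defined the classes. The lists were of very unequal length, from 32310 hotspots in Snf2h replicate 1 to 293135 in CHD4 replicate 2. Of the regions with 1 Snf2h list, 9135 had replicate 2 and 570 had replicate 1, the shorter list.

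Membership turned on a pair of libraries. Without the Snf2h replicate 2 list the rule found 12397 members, or 53.0% of regions with every remaining Brg1 and CHD4 list. Without the CHD4 replicate 1 list, which is the shortest of the 4 Brg1 and CHD4 lists, it found 12608 members, or 31.1%. Regions without Snf2h that missed 1 of the 4 lists missed CHD4 replicate 1 in 9335 cases, Brg1 replicate 1 in 1420, CHD4 replicate 2 in 320 and Brg1 replicate 2 in 75. An absent hotspot means that none was listed at the authors' threshold, and depth per library is unknown because the lists give no tag totals.

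Members had lower Brg1 and CHD4 peaks than regions of all 6 lists. The height used is the maximum tag density of the tallest hotspot in the region, in the authors' units. Their scaling is not stated, so heights were compared between regions inside a library. In members this maximum was taken over fewer hotspots. In Brg1 replicate 1, 93.9% of members held 1 hotspot, against 74.6% of regions of all 6 lists, and in CHD4 replicate 1 it was 97.2% against 80.8%. The replicate 2 lists differed in the same direction. The part of hotspot number in the height difference was not tested. In Brg1 replicate 1 the median height was 33.0 in members, 45.2 with 1 Snf2h list and 47.5 with both. In Brg1 replicate 2 the medians were 20.4, 24.7 and 21.8.

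In CHD4 replicate 1 the medians were 13.5, 16.6 and 20.1, and in CHD4 replicate 2 they were 8.90, 11.4 and 13.6. Both CHD4 libraries thus rose in order from no Snf2h list to 1 to both, while in Brg1 replicate 2 the middle class was highest. The classes overlapped widely in every library: in CHD4 replicate 1 the middle 50% of members lay between 10.4 and 17.7, and that of regions of all 6 lists between 14.2 and 28.8.

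The log2 ratio of the members' median to that of regions of all 6 lists was -0.52 and -0.10 in the Brg1 replicates and -0.57 and -0.61 in the CHD4 replicates. Its mean was -0.45 ± 0.24 (SD, n = 4 libraries), lower in 4 of 4, with a two-sided exact sign-flip permutation p = 0.13, the smallest that 4 libraries allow. The design therefore cannot reach 0.05. The libraries are replicates of Brg1 and of CHD4, all split by the same Snf2h lists, so they are not independent. The SD describes the spread over these libraries. The p takes its smallest value whenever all 4 ratios share a sign, whatever their spread. Neither shows a replication of the difference between classes. The sign in Brg1 replicate 2 was not stable: members were higher there in 6 of 16 alternative settings, and its log2 ratio ran from -0.91 to 0.15. In the other libraries members were lower in 16 of 16.

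**Figure D1:**
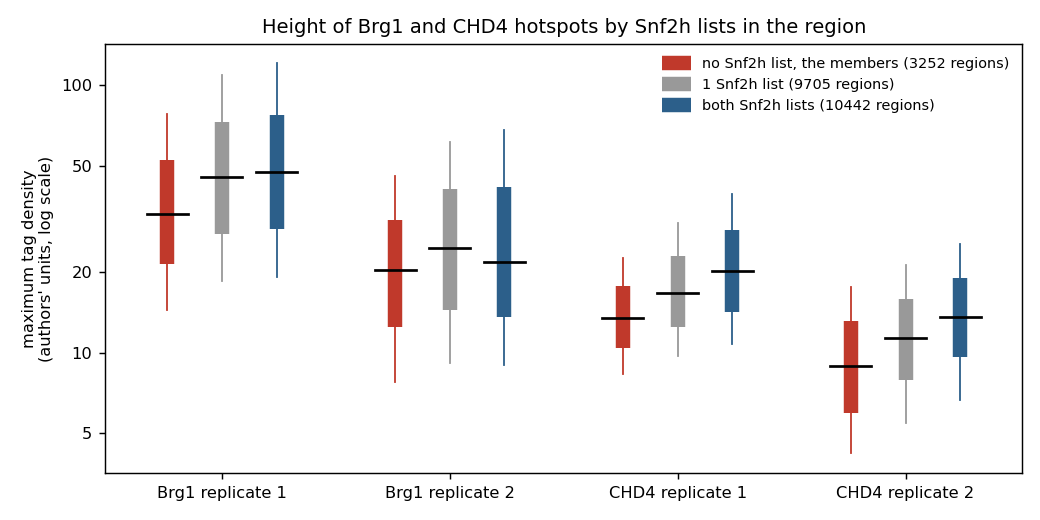
Maximum tag density (authors' units, log axis) of the tallest hotspot of each library in regions with no Snf2h list, 1 Snf2h list or both. Black bars are medians, thick bars the middle 50% of regions and thin lines the 10th to 90th percentiles; the CHD4 medians rise from left to right in both replicates, and the Brg1 replicate 2 medians do not.

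Every member has a called hotspot in the 4 lists by the rule, so its enrichment is a description. The median Z score of members, the authors' measure of enrichment, was 25.2 and 30.2 in the Brg1 replicates and 12.2 and 9.76 in the CHD4 replicates. Ranked inside each whole list, the median member stood at percentile 80.0 and 93.8 for Brg1 and 47.2 and 90.9 for CHD4. Regions of all 6 lists stood at 88.1 and 94.3 for Brg1 and at 74.2 and 96.1 for CHD4. These percentiles depend on the length and threshold of a list, so they compare classes inside a library and not libraries. CHD4 replicate 1 listed 39797 hotspots from a Z score of 8.77, and CHD4 replicate 2 listed 293135 from a Z score of 2. A Z score of at least 9.49 in all 4 lists, the highest of the 6 lists' lowest Z scores, was met by 1500 members (46.1%), against 66.2% of regions with 1 Snf2h list and 79.9% with both. That cut is the lowest Z score of Brg1 replicate 1, so every region met it in that list. CHD4 replicate 1 started close to it, at 8.77, and both replicate 2 lists started at 2.

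The share of regions without Snf2h fell along CHD4 height. Regions were ranked by height in each library, ranks were averaged over the replicates of an antibody, and the 23399 regions were put into 5 equal groups, or quintiles. From the lowest to the highest CHD4 quintile the share without Snf2h was 26.8%, 17.1%, 12.8%, 8.87% and 3.93%. CHD4 replicate 1 alone gave 24.8% in the lowest and 3.27% in the highest quintile, and CHD4 replicate 2 alone gave 25.8% and 5.94%.

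Along Brg1 height the shares were 19.5%, 16.0%, 15.2%, 12.9% and 5.94%. Brg1 replicate 1 alone fell at each step, from 22.1% to 6.24%. Brg1 replicate 2 alone stayed between 14.5% and 16.7% over its lower 4 quintiles and was 7.16% in the highest. These are descriptions over regions, which are not replicates, and Brg1 and CHD4 heights move together.

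With Brg1 height held to a quintile, the share without Snf2h was lower in the highest than in the lowest CHD4 quintile at each of the 5 Brg1 levels. In the middle Brg1 quintile it was 29.5% of 624 regions at the lowest CHD4 quintile and 2.85% of 492 regions at the highest. In the highest Brg1 quintile it was 17.5% and 3.60%, the first of these over only 40 regions (interval 8.75% to 32.0%). The mean difference over the Brg1 quintiles was 22.0 percentage points (counting interval 19.0 to 24.9), and it was positive in 17 of 17 alternative settings, from 14.0 to 46.6.

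The converse difference, lowest minus highest Brg1 quintile at a given CHD4 quintile, averaged 0.646 points (counting interval -2.27 to 3.57). It was largest at the lowest CHD4 quintile, with shares of 26.5% and 17.5%, the second over only 40 regions. At CHD4 quintiles 2, 3 and 4 the share was larger in the highest Brg1 quintile. At CHD4 quintile 5 the shares were 3.88% and 3.60%. The mean has no settled direction. It was negative in 10 of 17 settings and ran from -20.8 without Snf2h replicate 2 to 18.2 without CHD4 replicate 1. Quintiles are coarse and heights are noisy, so part of a difference along 1 antibody can appear along the other. On simulated lists in which absence followed CHD4 height alone, the Brg1 difference did not come back as 0 in every run, and with strong noise in the heights it missed 0 in most runs. The counting intervals do not cover this. Neither the 22.0 nor the 0.646 points can be read as a separate effect of 1 antibody.

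**Figure D2:**
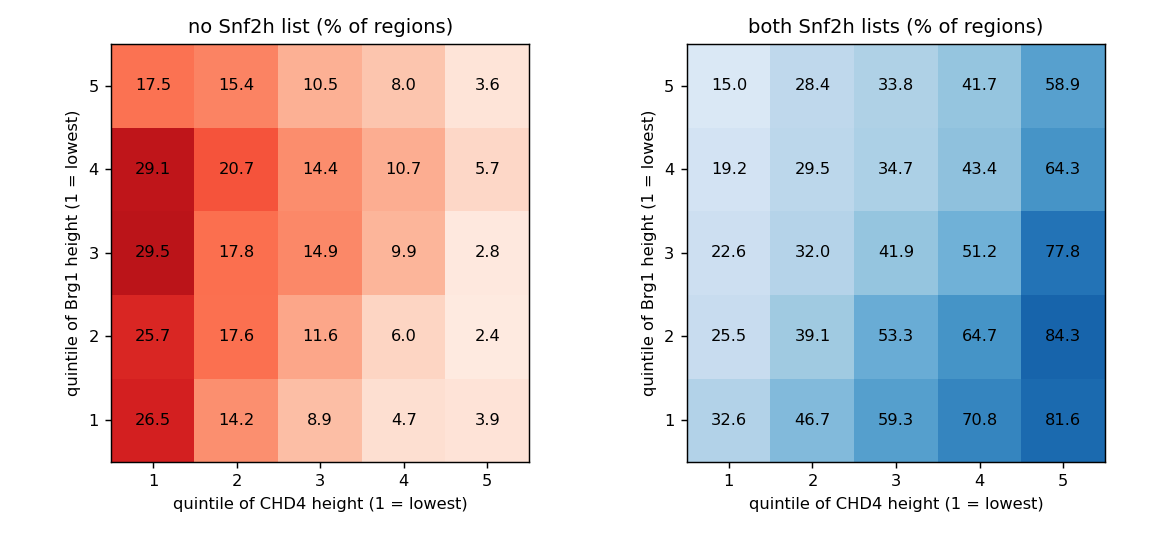
Regions with all 4 Brg1 and CHD4 lists, by quintile of CHD4 height (x axis) and of Brg1 height (y axis): the share with no Snf2h list (left, %) and with both (right, %). In each row the left panel is higher at the lowest CHD4 quintile than at the highest, as at 29.5% and 2.85% in the middle row; the top left cell holds 40 regions.

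Ranked among all 23399 regions, members stood lower in CHD4 than in Brg1. With ranks averaged over replicates, their median percentile was 31.1 for CHD4 and 39.0 for Brg1. CHD4 was below Brg1 in 63.1% of members, against 58.8% of regions with 1 Snf2h list and 40.9% with both. The Brg1 replicates were unlike: the members' median was 34.16 in replicate 1 and 44.55 in replicate 2. In the CHD4 replicates it was 29.99 and 29.61. Brg1 replicate 1 thus stood close to CHD4, and the wider gap between antibodies rested on Brg1 replicate 2. Single members departed far from the order of CHD4 below Brg1. The member at chr3:5860269-5860873 had CHD4 heights of 155 and 164 with Z scores of 321 and 387, the top rank among members in both CHD4 libraries. Its Brg1 heights were 23.2 and 4.59. The member at chr14:20110391-20111044 had CHD4 heights of 24.3 and 18.0 and Brg1 heights of 9.84 and 2.53.

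The opposite pattern was seen at chr14:68662783-68663293, with Brg1 heights of 135 and 43.2 and CHD4 heights of 11.4 and 2.72. At chr12:71217684-71218947 Brg1 heights were 99.0 and 44.9 and CHD4 heights 11.4 and 6.92. In each of these the Brg1 libraries, or the CHD4 libraries, moved together against the other antibody, which is how they were picked. All coordinates are on mm9. Genes and sequence at these positions were not analysed here, since the reference tables at hand are of another build.

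Over all members, heights in a pair of libraries of the same antibody were related with Spearman's rho 0.638 for Brg1 and 0.635 for CHD4, and pairs of different antibodies gave 0.523 to 0.589 (n = 3252 regions, a description). In regions of all 6 lists the same-antibody values were 0.768 and 0.718. Midpoints of the tallest hotspots in members differed by a median of 71.0 to 106 bp between replicates and of 74.5 to 102.5 bp between antibodies. In regions of all 6 lists the medians were 117 to 140 bp and 105.5 to 138 bp. Joining by overlap keeps these offsets small in every class, and members are narrower regions.

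Bases common to the tallest hotspots of all 4 lists were found in 2950 members (90.7%), over a median of 362 bp. The share was 87.9% with 1 Snf2h list and 86.2% with both, over longer stretches of 445 and 502 bp. Members were narrow. Their median width was 964 bp (middle 50% from 774 to 1242 bp), against 1257 bp with 1 Snf2h list and 1500 bp with both. Measured over Brg1 and CHD4 hotspots only, the widths were 964, 1243 and 1484 bp, so the gap was nearly as large without the Snf2h hotspots. A single hotspot in each of the 4 lists made up 2573 members (79.1%), against 63.6% and 53.2% in the other classes. A wider region has more bases on which an Snf2h hotspot can fall, and the part of width in membership was not tested.

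The tallest members by mean percentile in the lists were of unlike kinds. At chr15:6524011-6525345 the heights were 262 and 155 for Brg1 and 48.2 and 44.5 for CHD4, with Z scores of 162, 188, 41.6 and 44.8. An Snf2h hotspot lay 562 bp away. At chr17:14855372-14856698 they were 252, 128, 39.2 and 38.5, with the nearest Snf2h hotspot at 11039 bp.

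At chr5:125848166-125849095 the heights were 97.3, 62.0, 73.2 and 43.5, with Snf2h 13774 bp away. At chr6:115233611-115235386 they were 127, 133, 47.2 and 40.8, and at chr17:44171932-44172475 they were 122, 137, 44.0 and 34.3. These 5 members had Z scores of at least 27.4 in every library.

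The first of the 6 by that measure, chr11:3044644-3046802, differed. Its heights were 146, 90.0, 65.5 and 79.8, but its Z scores were only 28.2, 28.6, 10.0 and 17.0, and its tallest hotspots had no base common to the 4 lists. An Snf2h replicate 2 hotspot with a height of 56.5 began 234 bp away. It is 1 of 6 members whose density per unit of Z score exceeded 3 in a first replicate; 4 of the others lay on chromosome 2 between 167375742 and 167649580. Over all members the median of that ratio in Brg1 replicate 1 was 1.32. What raises density without raising the Z score there was not tested.

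**Figure D3:**
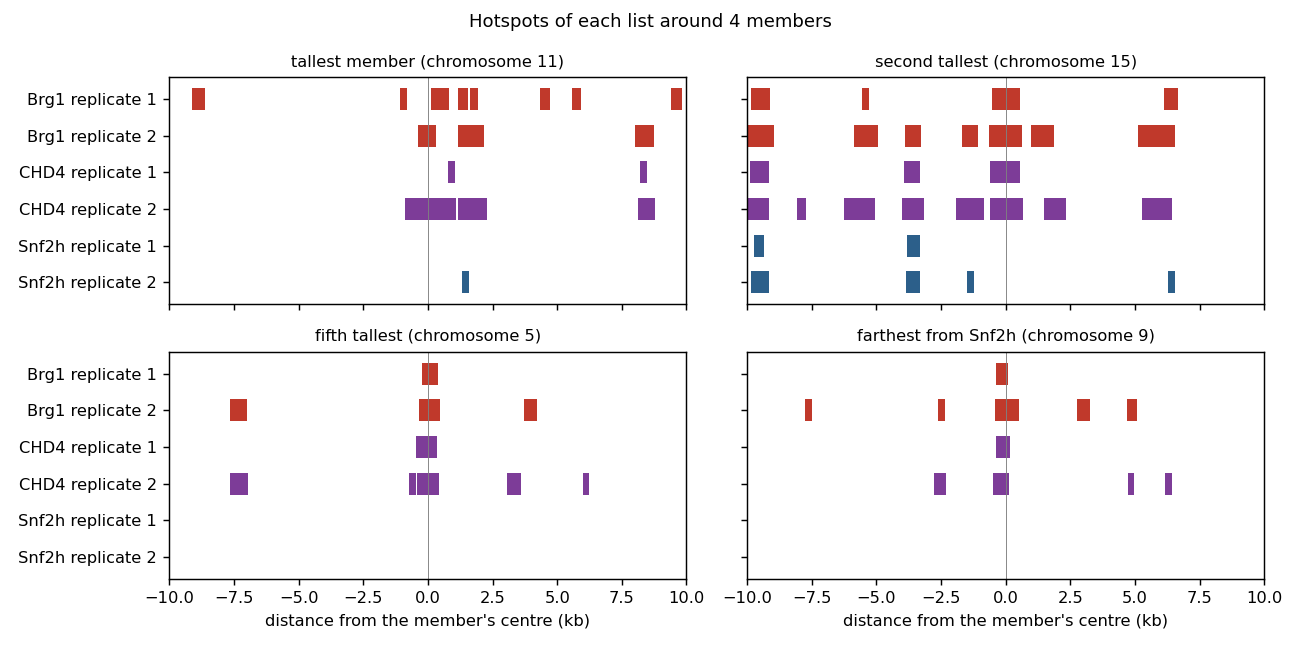
Hotspots of each list within 10 kb of the centre of 4 members (x axis, distance in kb; 1 row per library). The chromosome 15 member has Snf2h hotspots close by, and the members on chromosomes 5 and 9 have none in view. The chromosome 11 member has an Snf2h replicate 2 hotspot 234 bp from its edge. It holds 2 hotspots of Brg1 replicate 1 and 1 of each other Brg1 and CHD4 library, with CHD4 replicate 2 spanning most of it.

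No Snf2h hotspot was listed in members, but Snf2h hotspots were listed in their surroundings. The nearest Snf2h hotspot lay at a median of 5067 bp (middle 50% from 1739 to 12306 bp). It was within 1 kb of 552 members (17.0%) and within 10 kb of 2261 (69.5%). For Snf2h replicate 1, the shorter list, the median was 17731 bp, and for replicate 2 it was 5643 bp. Without the Snf2h replicate 2 list the share within 10 kb was 37.8%, over the 12397 members of that setting, and with all lists cut to an equal length it was 58.8%.

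Counts of hotspots with midpoints outside the region and within 50 kb of it were nearly alike around members and around regions of all 6 lists. Hotspots centred inside the region, such as most Snf2h hotspots that define regions of all 6 lists, were left out of these counts. Around members there were a mean of 1.92 hotspots of Snf2h replicate 1 and 5.08 of replicate 2, against 1.95 and 4.94. For the 4 Brg1 and CHD4 lists the ratio of members to regions of all 6 lists ran from 1.04 to 1.06. The distance to the nearest Snf2h hotspot is bounded by the rule and is a description. It was taken from members only, so it shows no trait particular to them.

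**Figure D4:**
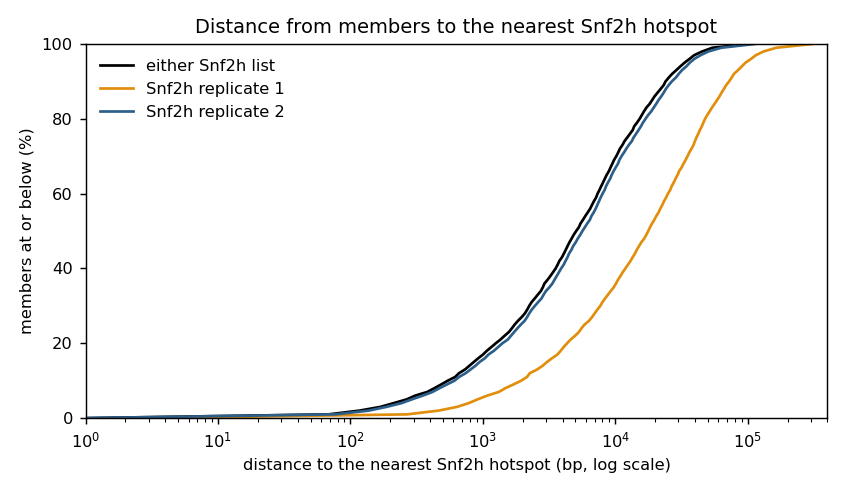
Cumulative share of the 3252 members (y axis, %) by distance to the nearest Snf2h hotspot (x axis, bp, log scale), for either list and for each Snf2h library. The replicate 1 curve lies to the right: its median is 17731 bp, and that of replicate 2 is 5643 bp.

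The farthest members from Snf2h were chr9:117480090-117481100 at 103181 bp, chr16:96713114-96714142 at 90975 bp and chr16:22967228-22968649 at 85809 bp. The first had heights of 38.8, 17.4, 10.1 and 6.18 over the 4 libraries, and the third had 35.3, 80.5, 19.1 and 12.6.

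The edge of the rule was sharp in bases. The members at chr11:97524736-97525972, chr15:43455873-43457002 and chr2:53545240-53546772 had an Snf2h hotspot 1, 3 and 9 bp away. Just outside, a region on chromosome 18 shared 6 bp with an Snf2h hotspot and others shared 12 and 18 bp. By strength, the weakest Snf2h hotspot that kept a region out had a Z score of 8.50, at chr7:25687427-25688381, and 957 regions with 1 Snf2h list had a Z score under 10. Asking for no Snf2h hotspot within 1 kb left 2700 members and a mean log2 height ratio of -0.46.

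Members were spread over every autosome and X. The share of regions without Snf2h ran from 11.2% on chromosome 11 (interval 9.84% to 12.8%) to 17.5% on chromosome 10 (15.5% to 19.7%). X held 63 members, 0.386 per Mb against 1.32 on the autosomes, a ratio of 0.292. The regions with all 4 Brg1 and CHD4 lists were also sparse on X, at a ratio of 0.328, and the share without Snf2h was 12.4% there and 13.9% on the autosomes. The low density on X was thus seen in the pooled regions with Brg1 and CHD4 as well as in members.

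**Figure D5:**
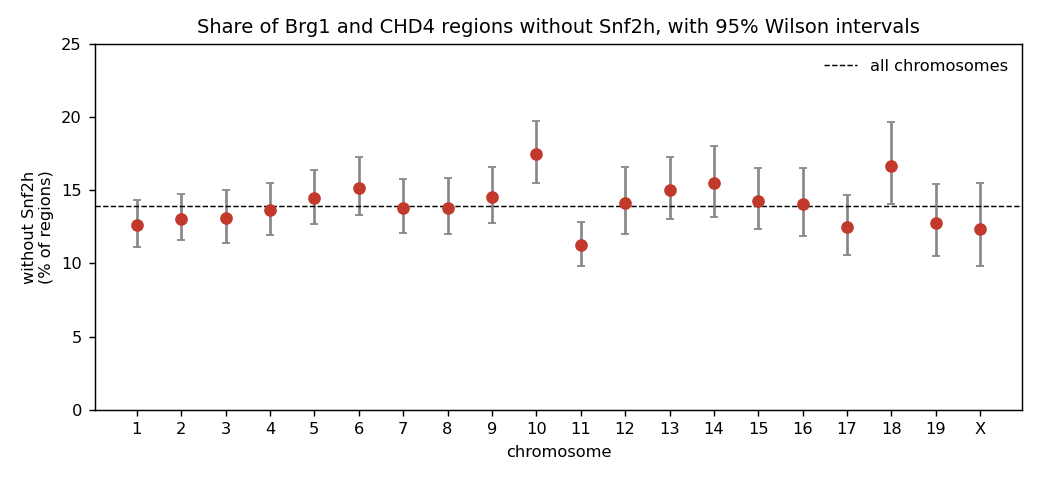
Share of regions with all 4 Brg1 and CHD4 lists that lack Snf2h (y axis, %) by chromosome, with 95% Wilson intervals for counting error; the dashed line is the share over all chromosomes, 13.9%. Chromosome 10 is highest at 17.5% and chromosome 11 lowest at 11.2%.

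The next member was a median of 130253 bp away, and 350 members (10.8%) had another within 10 kb. Regions with 1 Snf2h list lay a median of 33252 bp from the next of their class, with 27.4% within 10 kb, and those with both lay 36822 bp away, with 23.3%. Those classes hold about 3 times as many regions, and whether members cluster beyond their number was not tested. In windows of 1 Mb, 1439 windows held a member and 591 held exactly 1. The densest windows held 11 members each: chr10:17000000-17999999, with 11 of 25 regions, chr9:63000000-63999999, with 11 of 38, and chr2:167000000-167999999, with 11 of 51. The chromosome 2 window holds the 4 members of high density per Z score named above, and its median ratio in Brg1 replicate 1 was 2.71. That ratio was also raised in the chromosome 9 window, at 2.22, against 1.32 over all members. In the chromosome 10 window it was 1.16.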

How the data were processed

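The members and lists were chosen with earlier results of these data known. The authors deposited 1 hotspot list per library. Per the submitters' processing notes the build is mm9, and CASAVA 1.6 was used for a purpose not named. The hotspot caller, its thresholds and any use of inputs were not given in the sources used here. Per the file headers, each deposited hotspot has a maximum and average tag density (a signal on an unstated scale), a Z score and a p-value. The labels' extraction text describes another assay, and the 2 DNA inputs were not analysed here.

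Hotspots were joined, classed and measured with Python 3.11.15, numpy 2.4.6, pandas 2.3.3 and scipy 1.17.1, and plots were drawn with matplotlib 3.10.9. The joined regions numbered the same with bedtools. The 1 test was an exact sign-flip permutation over 4 libraries. Quintiles with under 20 regions at either end were left out of differences between quintiles. Named regions were the 6 tallest by mean percentile, 3 with each antibody ahead, the 2 widest, the 3 farthest from Snf2h, those at the edge of the rule and the 3 densest windows; not every one is described. Joining, distances and height tables were tested on simulated data, where differences between quintiles leaked between antibodies. Alternatives left out each library, changed Z score, length, height and overlap limits, or used average density, autosomes, regions from the Brg1 and CHD4 lists alone or a 1 kb clearance. The comparisons within quintiles and the last 2 alternatives were added after seeing the data.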

Additional observations from a re-analysis of the deposited data

How the results depend on the processing

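No paired analysis was possible because no groups of libraries were compared: the test already sets classes of regions side by side within each library, so replicate numbers have nothing to pair. The log2 height ratio, as a mean over libraries, stayed negative in 17 of 17 alternatives, from -0.98 to -0.18. Its exact sign-flip permutation p ran from 0.13 to 0.25, and in none can it reach 0.05. Brg1 replicate 2 by itself was positive in 6 of 16 alternatives, up to 0.15. Leaving out 1 library at a time gave 3407 to 12608 members, a share without Snf2h of 14.3% to 53.0%, a median width of 816 to 1154 bp, 37.8% to 70.4% of members with Snf2h within 10 kb, and differences of 21.8 to 46.6 points along CHD4 and of -20.8 to 18.2 points along Brg1.

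A common Z score gave 1884 members, 11.6%, 1056 bp, 67.3% and 14.0 points along CHD4. Lists of equal length gave 17.1%, 1090 bp, 58.8%, a ratio on X of 0.201, 29.9 points along CHD4 and -7.06 along Brg1. The taller 50% of each list gave 2135 members, 1059 bp, 59.5%, a ratio on X of 0.182 and -2.61 points along Brg1. Average density gave -4.87 and leaving out the tallest 1% gave -2.91 points along Brg1. A 50% overlap gave 933 bp. Windows of 500 bp gave 14.7% and 698 bp, by construction narrower, and joining hotspots up to 500 bp apart gave 12.7%, 1326 bp and 63.5%. A clearance of 1 kb gave 11.5% and 63.3%, by construction lower, since it drops the 552 members with Snf2h that near. Apart from what a setting fixes by construction, the cause of these changes was not tested. The planned promoter and motif comparisons were not run, as no mm9 annotation or sequence was used here. Unknown depth and unequal lists limit every statement on absence.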

Other observations

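In regions with all 4 Brg1 and CHD4 lists, the share with both Snf2h lists ran from 28.5% in the lowest to 63.9% in the highest CHD4 quintile. Along Brg1 quintiles it was 42.7%, 44.6%, 42.7%, 42.6% and 50.6%. At a given CHD4 quintile the direction along Brg1 was the opposite: the share with both lists was 22.6 points higher in the lowest than in the highest Brg1 quintile on average, as at 59.3% and 33.8% in the middle CHD4 quintile. At a given Brg1 quintile the lowest minus the highest CHD4 quintile was -50.4 points. A leak between the antibodies may touch these values too, but it was simulated only for the share without Snf2h. Alternatives of these values were not run. Width and height of members were weakly related, with Spearman's rho of 0.183 and 0.233 in the Brg1 replicates and 0.173 and 0.291 in the CHD4 replicates (n = 3252 regions, a description). The widest members were chr4:153893159-153896452, at 3294 bp, and chr7:29380532-29383765, at 3234 bp, whose tallest hotspots had no base common to the 4 lists.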
